A study of Mus musculus with 6 samples.

Results

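The potassium channel superfamily of the mouse heart at stage E18.5, shortly before birth, was read from a table of 24421 genes, as every row whose symbol starts with Kcn, and 98 rows met that rule. Of these, 93 encode channel subunits, pore-forming or auxiliary. The other 5 rows are 4 noncoding transcripts, Kcnq1ot1, Kcnmb4os1, Kcnmb4os2 and Kcnd3os, and Kcnrg, whose product interferes with the assembly of voltage-gated channels. The study measured poly(A) RNA of whole hearts from C57/Bl6 embryos by RNA sequencing in 6 libraries: 3 from wildtype hearts and 3 from hearts labelled Gas2l3 -/-. Gas2l3 encodes a protein that links actin filaments and microtubules and acts in cytokinesis. Neither group received a treatment, and no other allele is given in the labels. The labels do not say whether the replicates of a group were separate embryos, so p-values measure only the spread between these samples, which may be technical.

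Potassium channels let potassium leave the cell down its gradient, which repolarises the action potential and holds the resting potential. The letter after Kcn marks the family: Kcna to Kcnd, Kcnh and Kcnq are voltage-gated pores, Kcnf, Kcng, Kcns and Kcnv are silent subunits that join those pores, Kcnj are inward rectifiers, Kcnk are tandem-pore leak channels, Kcnn are gated by calcium through calmodulin, and Kcnma, Kcnt and Kcnu are large-conductance channels gated by voltage with calcium, sodium or pH. Kcnab, Kcne, Kcnip and Kcnmb are auxiliary subunits. In heart muscle, inward rectifiers set the resting potential, Kcnq1 with Kcne1 and Kcnh2 carry the slow and rapid delayed rectifier currents, and Kcnd pores with Kcnip2 carry the transient outward current.

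A gene counted as expressed, and was tested, with 1 FPKM (fragments per kilobase of transcript and sequencing depth, here scaled by the authors between libraries) or more in at least 3 of the 6 libraries. By that rule 26 of the 98 Kcn genes were expressed, or 26.5%, against 49.6% of all genes in the table. All 26 were channel subunits. A further 54 subunits had reads in at least 1 library but stayed below the minimum, and 13 were listed at 0 in all 6 libraries. With 10 FPKM in at least 3 libraries as the minimum, 9 Kcn genes remained, and with 20 FPKM, 7. The recovered depth ran from 3414257 to 7732674 reads per library, so a gene listed at 0 may still be transcribed at a level below 1 read per library.

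**Figure D1:**
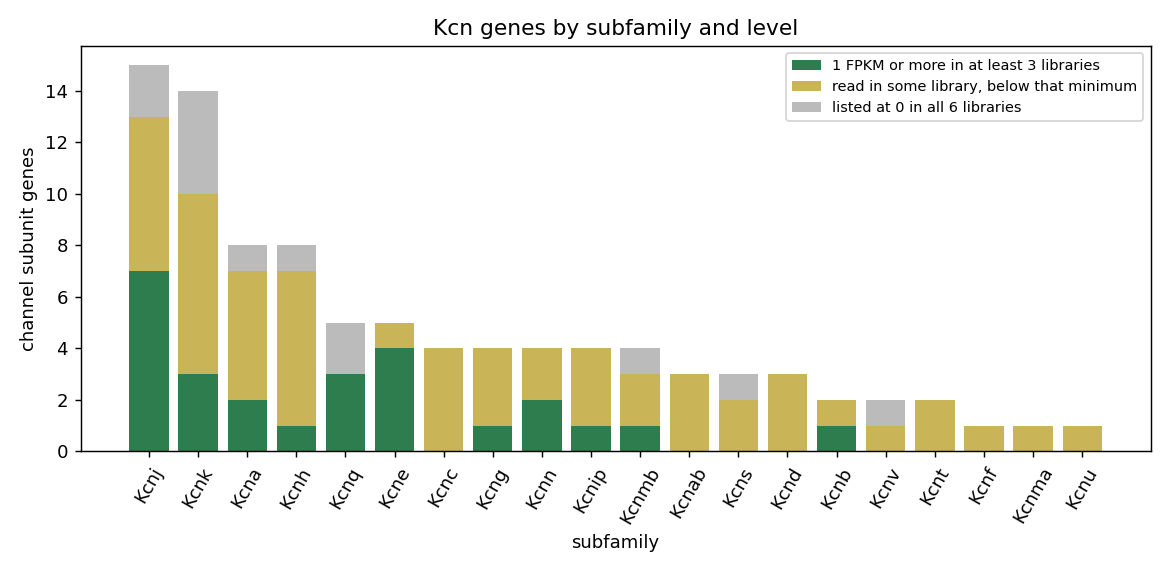
Number of Kcn channel subunit genes in each subfamily (bars), split by level in the 6 libraries. The Kcnj and Kcnk subfamilies are the largest, with 15 and 14 genes, of which 7 and 3 were expressed, and 4 of the 5 Kcne genes were expressed.

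The inward rectifiers had the most expressed genes, 7 of 15, and supplied 22.3% of the summed FPKM of the family, as the mean share over the 6 libraries. Kcng followed with 20.9%, all but a trace of it from the silent subunit gene Kcng2. Kcne supplied 17.4%, Kcnip 11.7%, Kcnh 8.51%, Kcnk 7.06% and Kcnq 5.04%. The other subfamilies supplied less than that each: Kcna 2.83% from 8 genes, Kcnn 2.35% from 4 genes, and Kcnd only 0.417% from 3 genes. No gene of Kcnab, Kcnc, Kcnd, Kcnf, Kcnma, Kcns, Kcnt, Kcnu or Kcnv passed the minimum. Shares of FPKM are shares of transcript per length, not of channel protein.

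Neighbouring members differed widely in level. On chromosome 11, Kcnj2, whose product is the main strong inward rectifier of ventricular muscle, had a mean of 7.12 FPKM, while Kcnj16, 38.2 kb upstream, was listed at 0. Kcne1 had a mean of 60.9 FPKM and Kcne2, which lies 47.9 kb away on chromosome 16, 0.623 FPKM. Kcnj5 (21.7 FPKM) lies 28.1 kb from Kcnj1 (0 FPKM) on chromosome 9, and Kcna5 (9.08 FPKM) lies 105 kb from Kcna1 (0.0104 FPKM) on chromosome 6. The Kcnk5 and Kcnk16 pair on chromosome 14, 79.6 kb apart, had 1.22 and 0 FPKM. Levels are per length and in FPKM, and coordinates are those of GENCODE M21 on GRCm38.

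The sequences before 4 members are shown to set an expressed gene beside a neighbour listed at 0 and to show that expressed members differ in GC boxes and GC content there. Each is the 250 bases before the most upstream RefSeq start (GRCm38.p6), 5′ to 3′ on the gene's strand, with capitals for the GC box, GGGCGG or its reverse complement CCGCCC.
Kcnj2, chr11:111065914-111066163, plus strand: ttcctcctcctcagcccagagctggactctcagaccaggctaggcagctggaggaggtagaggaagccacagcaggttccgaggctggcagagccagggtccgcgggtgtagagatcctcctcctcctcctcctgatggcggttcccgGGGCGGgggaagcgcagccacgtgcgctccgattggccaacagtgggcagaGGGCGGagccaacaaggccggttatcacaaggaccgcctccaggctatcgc
Kcnj16, chr11:110967783-110968032, plus strand: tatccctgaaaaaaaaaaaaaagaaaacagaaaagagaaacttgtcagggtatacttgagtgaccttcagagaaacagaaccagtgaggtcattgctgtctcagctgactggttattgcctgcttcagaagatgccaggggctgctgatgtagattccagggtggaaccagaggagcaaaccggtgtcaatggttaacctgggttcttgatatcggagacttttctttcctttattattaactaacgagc
Kcna5, chr6:126535556-126535805, minus strand: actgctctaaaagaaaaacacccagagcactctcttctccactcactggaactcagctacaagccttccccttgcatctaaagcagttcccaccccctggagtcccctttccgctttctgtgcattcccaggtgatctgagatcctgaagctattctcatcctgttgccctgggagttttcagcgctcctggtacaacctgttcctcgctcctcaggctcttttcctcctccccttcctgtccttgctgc
Kcnip2, chr19:45816064-45816313, minus strand: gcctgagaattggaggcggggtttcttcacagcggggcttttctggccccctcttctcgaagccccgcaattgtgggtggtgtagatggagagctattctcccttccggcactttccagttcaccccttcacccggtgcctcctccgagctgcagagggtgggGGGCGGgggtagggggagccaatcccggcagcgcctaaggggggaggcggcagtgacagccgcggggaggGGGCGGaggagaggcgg
The windows of Kcnj2 and Kcnip2 held 2 GC boxes each and had a GC content of 65.6% and 66.8%. That of Kcnj16 held 0, with a GC content of 42.8%, and that of Kcna5, which is expressed, also held 0, with 53.2%. Among windows not printed, Kcne2, which is below the minimum, held 1, and the expressed Kcnh2, Kcne3 and Kcne4 held 3, 0 and 0. RefSeq windows were matched for 18 of the 26 expressed members, 43 of the 54 below the minimum and 8 of the 13 at 0. A GC box was present in 10 (55.6%), 22 (51.2%) and 3 (37.5%) of them, against 61.3% of the 9163 tested genes with a window and 43.1% of all 17224 windows. The letters TATAAA on either strand were found in 0, 2 and 0 of the 3 sets of members. A match of letters is a description and not a measured binding site.

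Facts of the whole series bear on these values as follows. Gas2l3 itself had reads in all 6 libraries, at 10.3, 4.12 and 2.48 FPKM in wildtype and 4.03, 2.99 and 3.06 FPKM in Gas2l3 -/- libraries, and the groups overlapped. Since the extent of the deletion is not stated in the labels, this level does not check the group labels, and every direction below is between libraries as labelled. Of 12121 genes tested across the table, 0 were called at an adjusted p under 0.05 (limma, Benjamini-Hochberg), 394 had an unadjusted p under 0.05, and voom on recovered reads, another limma method, called 0. Wildtype replicate 3 stood apart: its deviation from the mean of each gene rose with GC content (Pearson's r = 0.703 over 12074 genes of 1 library, a description), while in wildtype replicate 1 and Gas2l3 -/- replicate 1 it fell (r = -0.477 and -0.483).

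Heart muscle markers were abundant in every library, with 20892 to 30661 summed FPKM of 7 cardiomyocyte genes in wildtype and 19482 to 22098 in Gas2l3 -/-. The 5 ventricular markers summed to 19979 to 45759 against 17963 to 23882 FPKM, and the 10 atrial markers to 2109 to 5282 against 6522 to 8577 FPKM, without overlap. In the 10 atrial markers 4 genes had higher and 6 lower means, and Nppa alone had 1031 to 2408 against 4581 to 6523 FPKM. Nppa made up much of those sums. The next highest, Myl4 (703 to 2058 against 917 to 1553 FPKM) and Myl7 (278 to 1086 against 217 to 785 FPKM), overlapped. The 6 sinus node and conduction markers summed to 12 to 20.3 against 7.71 to 11.3 FPKM, and the 7 macrophage markers to 29.7 to 39.1 against 49.5 to 88.6 FPKM. Without Lyz2 (9.47 to 24.3 against 32.1 to 72.2 FPKM) the other macrophage markers summed to 12.7 to 20.2 against 16.4 to 20.6 FPKM and overlapped. Sums for neuron (55.9 to 112 against 66.9 to 72.4), Schwann cell (3.7 to 7.41 against 4.68 to 5.8), smooth muscle and pericyte (437 to 801 against 405 to 696), endothelial (339 to 749 against 431 to 512) and fibroblast markers (493 to 914 against 739 to 814) overlapped. Some single genes in these lists did not overlap. Emcn, Npr3, Lum and Tcf21 were higher in Gas2l3 -/- (background 5.02%) and Dbh was lower (background 4.74%). Of the 8 endothelial markers 5 had higher and 3 lower means, and of the 6 fibroblast markers 5 had higher and 1 lower means (median 0.55). Skeletal muscle markers summed to 14.3 to 39.5 against 8.2 to 25.6 FPKM with Myod1 and Myf5 at 0, and lung, liver, thymus and fat markers to 2.04 to 11.6 against 1.24 to 11.1 FPKM with Scgb1a1 and Cd3e at 0. In bulk hearts, fewer cells of a type and less RNA per cell cannot be told apart, and the part of the markers in any Kcn value was not tested.

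**Figure D2:**
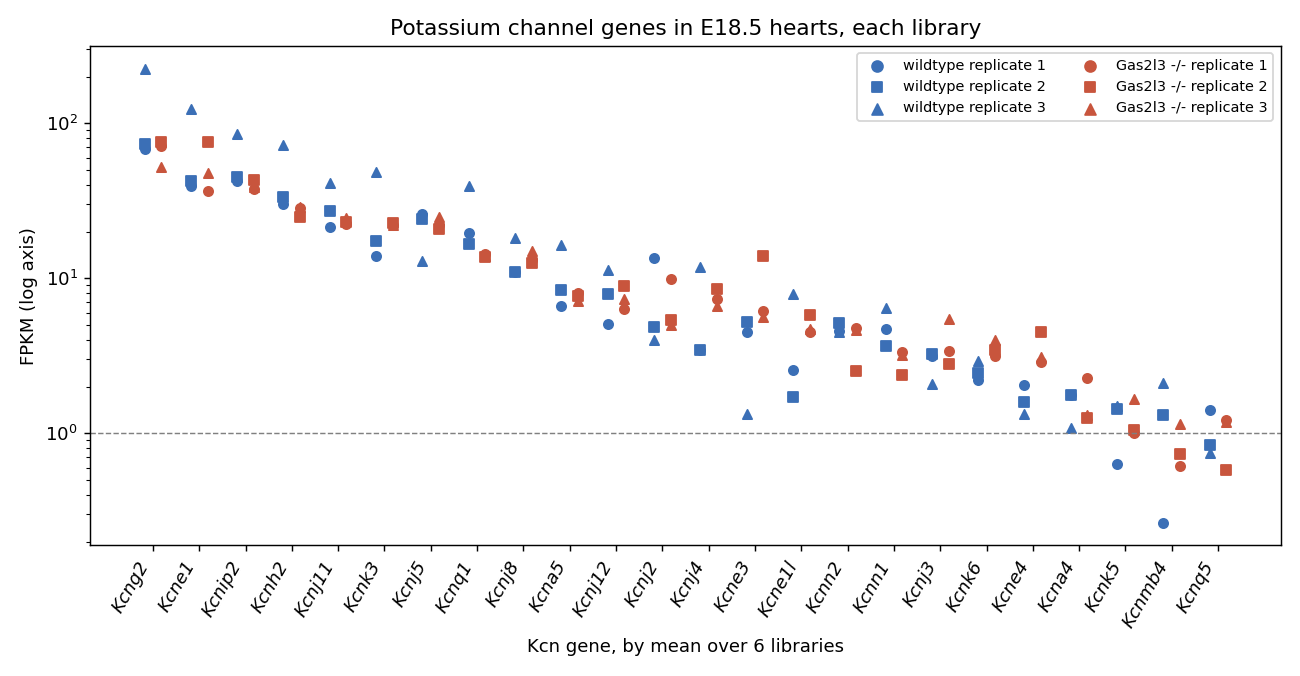
FPKM (log axis) of 24 of the 26 expressed Kcn genes in each library, ordered by mean over the 6 libraries. Circles, squares and triangles are replicates 1, 2 and 3, wildtype in blue and Gas2l3 -/- in red, and the dashed line marks the minimum of 1 FPKM. Kcng2 is the highest at a mean of 94.5 FPKM, and wildtype replicate 3 lies above the other 5 libraries in 15 of the 26 genes.

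Kcng2, a silent subunit that forms channels only together with other voltage-gated pores, had the highest level of the family. Its levels were 68.6, 73.6 and 225 FPKM in wildtype and 71.5, 75.6 and 52.1 FPKM in Gas2l3 -/-. Wildtype replicate 3 was more than 3 times its group mates and the groups overlapped. The log2 fold change, Gas2l3 -/- over wildtype on the log2(FPKM + 0.5) scale throughout, was -0.67 (SE 0.47; limma adjusted p = 0.966), and -0.12 without wildtype replicate 3. In each of the 6 libraries Kcng2 was above Kcne1, the next gene by level.

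Kcne1, the small auxiliary subunit of the slow delayed rectifier, was the second gene by level. It had 39.4, 42.2 and 124 FPKM in wildtype and 36.8, 75.2 and 47.8 FPKM in Gas2l3 -/-. One library in each group was high and the groups overlapped, with a log2 fold change of -0.21 (SE 0.48; limma adjusted p = 0.969) that was 0.32 without wildtype replicate 3. Kcne1 and Kcnip2, the next gene, had no fixed order: Kcne1 was above Kcnip2 in 3 of the 6 libraries. Its pore, Kcnq1, had 19.7, 16.7 and 39.4 FPKM in wildtype and 14.3, 13.8 and 14 FPKM in Gas2l3 -/-. All 3 Gas2l3 -/- values of Kcnq1 lay below all 3 wildtype values. The log2 fold change was -0.72 (SE 0.34, 95% interval -1.49 to 0.04; limma unadjusted p = 0.0614, adjusted p = 0.966), and -0.36 without wildtype replicate 3. The transcript level of Kcne1 was 2 to 5.44 times that of Kcnq1 per length, and this ratio overlapped between the groups. Kcnq1ot1, the noncoding transcript of the opposite strand within Kcnq1, was at 0.0157 to 0.194 FPKM. It overlaps 2.96% of the exon bases of Kcnq1.

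Kcnq5, better known from neurons, had a mean of 0.999 FPKM and a log2 fold change of -0.01 (SE 0.33; limma adjusted p = 1). Kcnq3, a neuronal pore gene, was at 0 in all 6 libraries.

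Kcne4 and Kcne3, auxiliary subunits that alter the gating of several voltage-gated pores, were the only 2 tested Kcn genes with an unadjusted p under 0.05 in the limma fit. Kcne4 had 2.05, 1.6 and 1.33 FPKM in wildtype and 2.88, 4.51 and 3.11 FPKM in Gas2l3 -/-. Each Gas2l3 -/- library was above each wildtype library, with means of 1.66 ± 0.365 and 3.5 ± 0.883 FPKM (SD, n = 3 each). The log2 fold change was 0.88 (SE 0.28, 95% interval 0.24 to 1.52; limma unadjusted p = 0.0129, adjusted p = 0.966). Kcne3 had 4.5, 5.2 and 1.34 FPKM in wildtype and 6.12, 14 and 5.64 FPKM in Gas2l3 -/-. These groups did not overlap either, but the size rested on a low wildtype replicate 3 and a high Gas2l3 -/- replicate 2. The log2 fold change of 1.17 (SE 0.50, 95% interval 0.03 to 2.30; limma unadjusted p = 0.0446, adjusted p = 0.966) was 0.65 without the first and 0.77 without the second, and in neither case was the unadjusted p under 0.05. Without Gas2l3 -/- replicate 2 the change of Kcne4 was 0.71 and the count of tested Kcn genes with an unadjusted p under 0.05 was 0. Reads behind these values were few, 19 to 60 per library for Kcne4 and 14 to 130 for Kcne3.

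The remaining Kcne genes did not show that pattern in the same way. Kcne1l, an X-linked gene also named Kcne5, had 2.57, 1.72 and 7.92 FPKM in wildtype and 4.48, 5.76 and 4.69 FPKM in Gas2l3 -/-. The wildtype libraries lay on both sides of the Gas2l3 -/- libraries. Its change was 0.50 (SE 0.46; limma adjusted p = 0.966), and 1.06 without wildtype replicate 3 (limma adjusted p = 0.868). Without wildtype replicate 2 it was 0.10. Kcne2 stayed below the minimum at 1 to 10 reads per library.

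Kcnh2, the pore of the rapid delayed rectifier, had 30, 33.5 and 72.4 FPKM in wildtype and 28.4, 24.8 and 28.8 FPKM in Gas2l3 -/-. All 3 Gas2l3 -/- values were below the lowest wildtype value, which was close to the highest of them. The log2 fold change was -0.60 (SE 0.36, 95% interval -1.42 to 0.21; limma unadjusted p = 0.128, adjusted p = 0.966), and -0.21 without wildtype replicate 3. Kcnh2 was the only one of 8 Kcnh genes expressed: the highest of the others, Kcnh3, had a mean of 0.14 FPKM, and Kcnh8 was at 0.

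The transient outward current showed the widest gap between an auxiliary subunit and its pore. Kcnip2, a calcium-binding protein that carries Kcnd pores to the membrane, had 42.4, 45 and 85.7 FPKM in wildtype and 37.7, 43.1 and 39 FPKM in Gas2l3 -/-. The groups overlapped, with a log2 fold change of -0.45 (SE 0.33; limma adjusted p = 0.966) and of -0.13 without wildtype replicate 3. Kcnd2, its pore, had 1.64, 0.924 and 1.22 FPKM in wildtype and 0.475, 0.285 and 0.604 FPKM in Gas2l3 -/-, from 28, 32 and 34 reads and from 14, 7 and 19 reads. The groups did not overlap, but Kcnd2 reached 1 FPKM in 2 libraries and so was not among the tested genes, a filter that here left out a gene that was low in the Gas2l3 -/- libraries. In the fit with no filter its log2 fold change was -0.88 (SE 0.24; limma unadjusted p = 0.00745, adjusted p = 0.944). Kcnd3, another Kcnd pore, had 0.181 to 0.436 FPKM and a change of 0.05 in that fit. The ratio of Kcnd2 to Kcnd3 was 2.12 to 6.76 in wildtype and 0.742 to 1.71 in Gas2l3 -/-, a description of ratios between few reads. The level of Kcnip2 was 25.9 to 151 times that of Kcnd2 per length.

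Of the Kcna pores, Kcna5, which carries a rapidly activating sustained current, had 6.63, 8.46 and 16.5 FPKM in wildtype and 8.06, 7.7 and 7.11 FPKM in Gas2l3 -/-. The groups overlapped. The log2 fold change of -0.34 (SE 0.34; limma adjusted p = 0.966) was 0.02 without wildtype replicate 3. Kcna4 had a mean of 1.58 FPKM and a change of 0.05. Of the other Kcna genes Kcna6 had the highest mean, 0.611 FPKM, and Kcna10 was at 0.

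Among inward rectifiers, the pores of the ATP-sensitive channel were well expressed. Kcnj11 had 21.4, 27.1 and 41.2 FPKM in wildtype and 22.4, 23.1 and 24.4 FPKM in Gas2l3 -/-, with overlap and a log2 fold change of -0.30 (SE 0.29; limma adjusted p = 0.966). For Kcnj11 this was -0.05 without wildtype replicate 3 and -0.51 without wildtype replicate 1. Kcnj8, known from smooth muscle and pericytes, had 10.9, 10.9 and 18.1 FPKM in wildtype and 13.2, 12.5 and 14.9 FPKM in Gas2l3 -/-, a change of 0.06 (SE 0.27; limma adjusted p = 0.986). The ratio of Kcnj11 to Kcnj8 within a library was 1.96 to 2.49 in wildtype and 1.64 to 1.84 in Gas2l3 -/-. These ratios did not overlap, which was seen after the values were known and was not tested. The GC content of the transcript was 57.1% for Kcnj11 and 53.3% for Kcnj8. With GC and length trends removed, Kcnj11 and Kcnj8 were at 4.72 and 3.87 on the log2 scale in wildtype replicate 3. In Gas2l3 -/- replicate 2 they were at 4.66 and 3.68, a wider gap, so on that scale the groups overlapped. The regulatory partners Abcc9 (14 to 34.9 FPKM) and Abcc8 (6.29 to 13 FPKM) were expressed in all 6 libraries and had changes of -0.07 and -0.20.

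The strong inward rectifiers behind the resting potential were at similar means, 7.79 FPKM for Kcnj12, 7.12 for Kcnj2 and 6.89 for Kcnj4, and had no fixed order over the libraries. Kcnj2 had 13.6, 4.84 and 4.02 FPKM in wildtype and 9.85, 5.37 and 5.01 FPKM in Gas2l3 -/-. In both groups replicate 1 was the high library, and the change was -0.01 (SE 0.46; limma adjusted p = 1). Kcnj12 ran the other way between libraries, with 5.06, 7.92 and 11.3 FPKM in wildtype and 6.32, 8.87 and 7.33 FPKM in Gas2l3 -/-. The ratio of Kcnj12 to Kcnj2 therefore ranged from 0.372 to 2.8 among wildtype libraries alone. The GC content of the transcript was 41.2% for Kcnj2 and 56.5% for Kcnj12. Kcnj4 had 3.46, 3.47 and 11.9 FPKM in wildtype and 7.31, 8.52 and 6.64 FPKM in Gas2l3 -/-. Wildtype replicate 3 lay above and the other wildtype libraries below every Gas2l3 -/- library. The change of Kcnj4 was 0.45 (SE 0.44; limma adjusted p = 0.966), and 1.004 without wildtype replicate 3 (SE 0.19; limma adjusted p = 0.848). Without either of the other wildtype libraries it was 0.18.

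The acetylcholine-gated channel, known from atrium and sinus node, is built from Kcnj5 and Kcnj3. Kcnj5 had 25.9, 24.1 and 12.9 FPKM in wildtype and 21.9, 20.7 and 24.8 FPKM in Gas2l3 -/-, with overlap and a change of 0.15 (SE 0.31; limma adjusted p = 0.969) that turned to -0.15 without wildtype replicate 3. Kcnj3 had 3.16, 3.27 and 2.07 FPKM in wildtype and 3.4, 2.8 and 5.45 FPKM in Gas2l3 -/-, also with overlap and a change of 0.37 (SE 0.31; limma adjusted p = 0.966), or 0.13 without Gas2l3 -/- replicate 3 and 0.19 without wildtype replicate 3. Per length, Kcnj5 was 4.55 to 8.18 times Kcnj3. The level of Kcnj3 is uncertain, since a transcript of the opposite strand, Gm26794, covers 31.1% of its exon bases and strand was not marked by the kit. Of the other inward rectifiers, Kcnj6 and Kcnj15 had means of 0.807 and 0.646 FPKM, and Kcnj1 and Kcnj16 were at 0.

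One leak channel made up most of the Kcnk signal. Kcnk3, an acid-sensitive background channel, had 14, 17.4 and 48.4 FPKM in wildtype and 22, 22.7 and 21.9 FPKM in Gas2l3 -/-. The 3 Gas2l3 -/- libraries lay close together, between the low and the high wildtype libraries, and the change was -0.04 (SE 0.43; limma adjusted p = 0.994), or 0.50 without wildtype replicate 3. Kcnk6, a weak inwardly rectifying leak channel, had 2.21, 2.44 and 2.92 FPKM in wildtype and 3.17, 3.44 and 3.99 FPKM in Gas2l3 -/-. Each Gas2l3 -/- library was above each wildtype library, with a change of 0.42 (SE 0.25, 95% interval -0.14 to 0.98; limma unadjusted p = 0.126, adjusted p = 0.966). Kcnk5 had a mean of 1.22 FPKM and a change of 0.07. Kcnk9, Kcnk10, Kcnk12 and Kcnk16 were at 0.

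Calcium-activated channels were represented by small-conductance pores. Kcnn2, known from atrial muscle, had 4.56, 5.14 and 4.49 FPKM in wildtype and 4.77, 2.54 and 4.67 FPKM in Gas2l3 -/-, with overlap and a change of -0.26 (SE 0.29; limma adjusted p = 0.966). Without Gas2l3 -/- replicate 2 the change of Kcnn2 was -0.0021. Kcnn1 had 4.68, 3.67 and 6.41 FPKM in wildtype and 3.33, 2.39 and 3.22 FPKM in Gas2l3 -/-. The Kcnn1 groups did not overlap, with a change of -0.62 (SE 0.28, 95% interval -1.26 to 0.02; limma unadjusted p = 0.0554, adjusted p = 0.966), or -0.43 without wildtype replicate 3. Of the large-conductance channel, the pore Kcnma1 had a mean of only 0.0446 FPKM, from 1 to 4 reads per library. Its auxiliary subunit Kcnmb4 passed the minimum with a mean of 1.03 FPKM, from 1 to 13 reads, and 20.8% of its exon bases are shared with Kcnmb4os2 on the opposite strand.

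The 54 subunits read below the minimum fell into a low and a trace level. With a mean of 0.2 FPKM or more there were 20, with means from 0.273 to 0.906 FPKM and at most 53 reads in a library. They were the auxiliary subunits Kcnab1, Kcnab2, Kcnab3, Kcne2, Kcnip3 and Kcnmb1, the voltage-gated pores Kcna6, Kcna7, Kcnc2, Kcnd1, Kcnd2 and Kcnd3, the inward rectifiers Kcnj6 and Kcnj15, the leak channels Kcnk1, Kcnk2 and Kcnk4, and the calcium- or sodium-activated Kcnn3, Kcnn4 and Kcnt2. Kcnab2 was the highest of them, at 0.423 to 1.65 FPKM and a mean of 0.906. Apart from Kcnd2, the groups of this low level did not overlap for Kcnmb1, a subunit of the large-conductance channel known from smooth muscle. Kcnmb1 had 0.318, 0.376 and 0.391 FPKM in wildtype and 0.442, 0.398 and 0.655 FPKM in Gas2l3 -/-, so the groups nearly met. These came from 5, 12 and 10 reads and from 12, 9 and 19 reads, too few to call a difference. The share of all genes below the minimum without overlap was not computed.

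The remaining 34 subunits had means of 0.147 FPKM or less and at most 8 reads in any library, too few to compare. Among them were Kcna1, Kcna2, Kcna3, Kcnb2, Kcnc1 and Kcnc4, the silent subunits Kcnf1, Kcng1, Kcng3, Kcng4, Kcns1, Kcns3 and Kcnv2, Kcnh1, Kcnh3, Kcnh4, Kcnh5, Kcnh6 and Kcnh7, the inward rectifiers Kcnj9, Kcnj10, Kcnj13 and Kcnj14, the leak channels Kcnk7, Kcnk13, Kcnk15 and Kcnk18, and Kcnip1, Kcnip4, Kcnma1, Kcnmb2, Kcnt1 and Kcnu1. Among the 13 subunits listed at 0 in all 6 libraries were Kcna10, Kcnh8, Kcnj1, Kcnj16, Kcnk9, Kcnk10, Kcnk12, Kcnk16, Kcnmb3, Kcnq3, Kcns2 and Kcnv1. Of the members that are not subunits, Kcnmb4os1 was at 0, Kcnmb4os2, Kcnd3os and Kcnq1ot1 had means of 0.184, 0.083 and 0.0954 FPKM, and Kcnrg one of 0.0905 FPKM.

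Across the family, 0 of the 26 tested Kcn genes passed an adjusted p of 0.05 (limma), against 0% of all tested genes. With an unadjusted p under 0.05 there were 2, or 7.69%, against 3.25% of all tested genes. That count was 4 without any single wildtype library, against 12.3% of all genes without wildtype replicate 1, 4.23% without replicate 2 and 4.45% without replicate 3. It was 0 without Gas2l3 -/- replicate 2, against 1.65% of all genes. Means were higher in Gas2l3 -/- for 11 Kcn genes and lower for 15, with a median log2 fold change of -0.01, against -0.01 over all tested genes, of which 49% were higher. Rescaling each library to a common FPKM total turned this split to 16 higher and 10 lower, with the medians of the Kcn genes and of all genes at 0.13 and 0.15. Groups did not overlap for 3 lower Kcn genes, Kcnq1, Kcnh2 and Kcnn1 (background 4.74%), and for 3 higher ones, Kcne4, Kcne3 and Kcnk6 (background 5.02%). With so few genes these shares describe the family and test nothing about it. Of 16 genes on a list of cardiac muscle currents, 14 were tested, 3 higher and 11 lower, with a median of -0.13, and 0 were called.

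**Figure D3:**
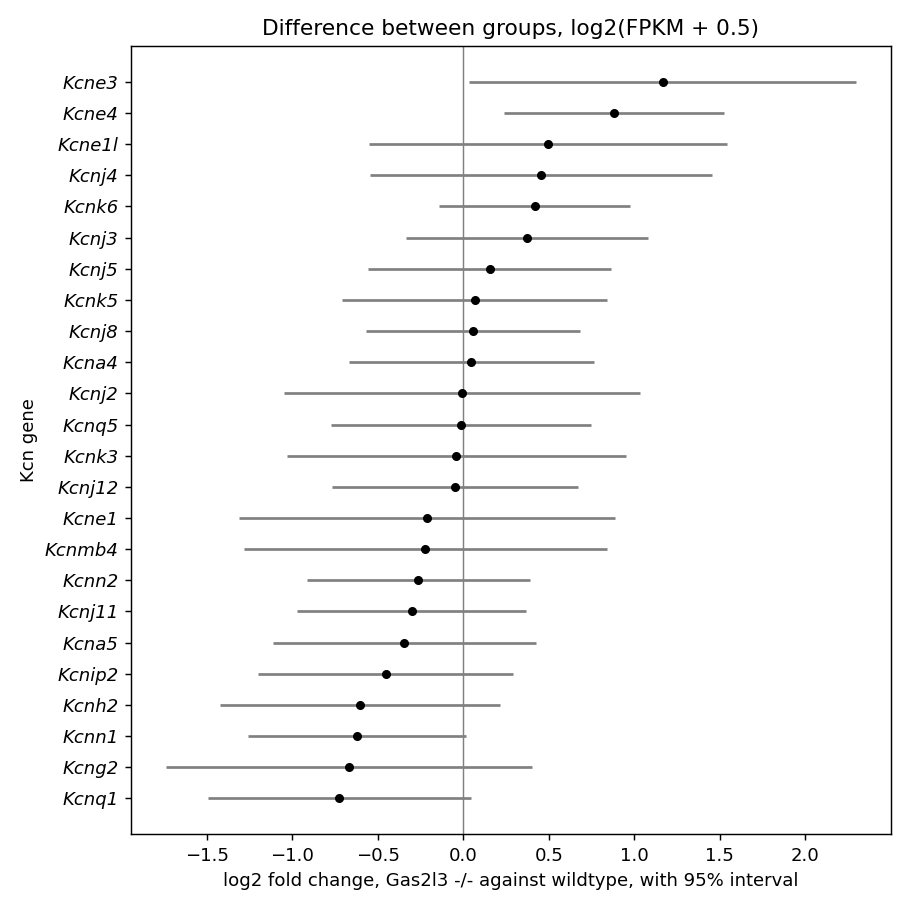
Log2 fold change, Gas2l3 -/- over wildtype, of 24 of the 26 tested Kcn genes (points) with its 95% interval from limma (lines). Among the 26 genes, the intervals of Kcne4 and Kcne3 alone lie off 0, and no gene passed after adjustment over 12121 genes.

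By subfamily, 3 of 4 tested Kcne genes had higher means in Gas2l3 -/- (median 0.69), and so had 4 of 7 Kcnj genes (median 0.06) and 2 of 3 Kcnk genes (median 0.07). Lower means were found for 2 of 2 Kcnn genes (median -0.44), 2 of 3 Kcnq genes (median -0.01), 1 of 2 Kcna genes (median -0.15) and the single tested genes of Kcng, Kcnh, Kcnip and Kcnmb. None of these medians was tested. The summed FPKM of the 93 subunits was 343, 356 and 760 in wildtype and 347, 394 and 346 in Gas2l3 -/-. Apart from wildtype replicate 3, the sums of the family thus lay between 343 and 394. Kcnj sums ran from 83.2 to 103 and Kcng sums from 52.1 to 226, both with wildtype replicate 3 as the highest.

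The authors' deposited table of their comparison also called 0 Kcn genes. It gave an unadjusted p under 0.05 to 4 of the 82 members with a p: Kcne4 (log2 fold change 0.73, adjusted p = 0.984), Kcne3 (0.68, adjusted p = 0.998), Kcnq1 (-0.61, adjusted p = 0.998) and Kcnd2 (-0.84, adjusted p = 0.711). The share of all genes with such a p in that comparison was not computed. It rests on the same 6 libraries, so these 4 genes are no separate support. In the authors' deposited table the sign was that of the FPKM for 24 of the 26 tested members. Kcng2 and Kcnip2 have a fold change but no p in the authors' deposited table.

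The library that stood apart was extreme in many of these genes. Wildtype replicate 3 was the highest of the 6 libraries in 15 of the 26 tested Kcn genes, or 57.7%, against 37.5% of all tested genes, and the lowest in 6. The 15 had a median transcript GC content of 57% (44.3% to 61.5%) and the 6 one of 45.9% (41.2% to 50.2%). Tested Kcn transcripts had a median of 54.4%, against 50% for all tested genes. Once the trends with GC content and length were removed from each library, wildtype replicate 3 was the highest in 8 and the lowest in 2. The summed level of the 26 genes was then 384, 357 and 489 in wildtype and 367, 396 and 350 in Gas2l3 -/-, in place of 330, 345 and 745 and of 334, 383 and 333 FPKM.

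**Figure D4:**
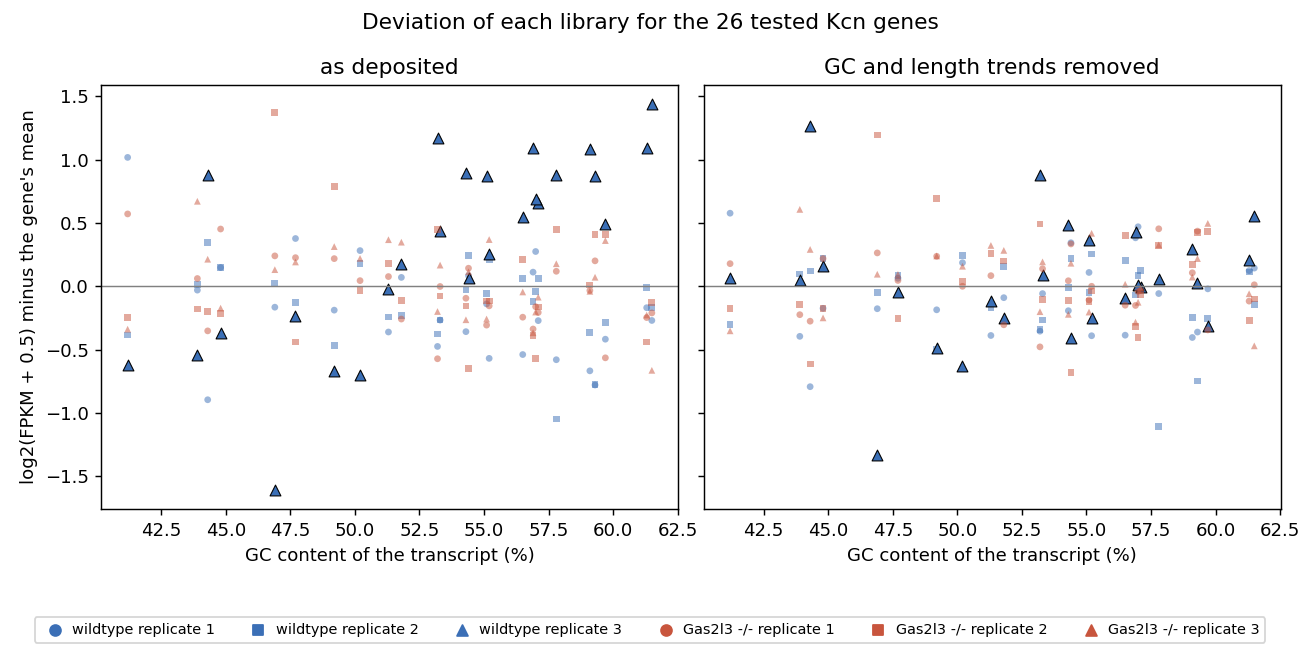
Deviation of each library from the mean of the gene, on the log2(FPKM + 0.5) scale, against GC content of the transcript, for the 26 tested Kcn genes. Left, values as deposited; right, with GC and length trends removed. Outlined triangles are wildtype replicate 3, which lies above 0 for the genes from 53.2% GC upward at left and on both sides of 0 at right.

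Removing those trends, an alternative chosen after the data were seen when run without the replicate block, also gave 0 called Kcn genes. The groups then did not overlap for 5 lower genes, Kcnip2, Kcnh2, Kcnj11, Kcnq1 and Kcnn1 (background 8.46%), and for 5 higher ones, Kcne4, Kcne3, Kcne1l, Kcnj4 and Kcnk6 (background 6.6%). An unadjusted p under 0.05 was reached by 6 Kcn genes against 7.79% of all genes: Kcne4 at 0.78, Kcne3 at 1.04, Kcne1l at 0.73, Kcnj4 at 0.72, Kcnk6 at 0.45 and Kcnq1 at -0.50, with limma adjusted p from 0.452 to 0.616. With the replicate number as a block in addition, the same 6 genes had an unadjusted p under 0.05 (background 11%), and the limma adjusted p ran from 0.266 to 0.437. The replicate block alone gave 4 such genes, Kcne4, Kcne3, Kcnq1 and Kcnn1 (background 6.01%), with limma adjusted p from 0.651 to 0.782. Without wildtype replicate 3 there were 4 among 23 tested members, Kcne4, Kcnj4, Kcnk3 and Kcne1l, all higher in Gas2l3 -/- (background 4.45%).

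The genes around the channels gave 0 calls as well. Of 20 partners and relatives on a list, 11 were tested, 4 higher and 7 lower, with a median of -0.20 and 0 called. Hcn4, the pacemaker channel of the sinus node, had 2.17, 3.15 and 3.75 FPKM in wildtype and 1.75, 1.61 and 1.86 FPKM in Gas2l3 -/-. The Hcn4 groups did not overlap (background 4.74%), with a change of -0.63 (SE 0.27; limma unadjusted p = 0.0496, adjusted p = 0.966). Hcn4 was the only 1 of the 11 with an unadjusted p under 0.05, against 3.25% of all tested genes. Of 10 genes of potassium transport, 9 were tested, 4 higher and 5 lower, with a median of -0.08 and 0 called. Atp1b2, a beta subunit of the sodium pump, had 13.1, 11.1 and 26.6 FPKM in wildtype and 9.4, 6.58 and 9.04 FPKM in Gas2l3 -/-, a change of -0.89 (SE 0.35; limma unadjusted p = 0.0329, adjusted p = 0.966). It was the only 1 of those 9 with an unadjusted p under 0.05. With lists this short, 1 such gene tells nothing about the list.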

How the data were processed

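Poly(A) RNA of hearts was sequenced on an Illumina NextSeq from NEBNext Ultra RNA libraries with 13 PCR cycles, per the labels' protocols. That kit does not mark strand. FastQC, DESeq2 and build mm10 are listed in the submitters' processing notes. Aligner, counter and annotation were not given in the sources used here. The authors deposited FPKM for each library and their own comparison with log2 fold changes and p-values, per the file headers. Judged by its values, the deposited FPKM table was scaled between libraries by size factors and sum to between 429622 and 788996. Whole reads were recovered from the FPKM and the authors' mean counts: each of 94235 nonzero values was a whole number of reads (100%, tolerance 0.01). Without molecular identifiers, PCR copies count as reads.

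Kcn rows were read from 1 fit of the whole table: limma (version 3.58.1, R 4.3.3; lmFit and trended eBayes), group only, two-sided, on log2(FPKM + 0.5) for 12121 genes with 1 FPKM or more in at least 3 libraries, Benjamini-Hochberg adjusted and called under 0.05. This scale understates changes of low genes. The code was tested on simulated data. Samples with the same replicate number deviated together: their correlations over 12121 genes were 0.472, 0.443 and 0.186, so a fit with the replicate block was run beside it, a pairing taken from the data and not from the labels. Trends with GC content (longest GENCODE M21 transcript, found for 99.6% of genes) and length were removed by loess (span 0.3). Named genes were the 10 highest members, the 12 of smallest p and the list of cardiac muscle currents. Members and lists (currents, partners, transport, cell type markers) were chosen with earlier results of these data known. A few members are counted but not reported here by name.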

Additional observations from a re-analysis of the deposited data

How the results depend on the processing

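Over 17 alternative settings 0 Kcn genes were called, with adjusted p of 0.266 or more in every limma fit. Over the whole table, 1 gene outside the family, Ppp1r1b, named after its value was seen, was called with GC and length trends removed, group only (log2 fold change -1.81, adjusted p = 0.0408). The count of Kcn genes with an unadjusted p under 0.05, 2 as reported, was 0 with a mean of 5 FPKM or more as the minimum, 4 with the replicate block, 6 with the replicate block and trends removed, 6 with trends removed, group only, and 0 to 4 when 1 replicate was left out. It was 4 without wildtype replicate 1, 2 or 3, where 12.3%, 4.23% and 4.45% of all genes passed, and 0 without Gas2l3 -/- replicate 2, where 1.65% passed. The minimum of 5 FPKM left 14 Kcn genes and took out Kcne4, and 235 of all 8628 genes passed there. Kcne3 then had a limma unadjusted p of 0.0514, so the drop to 0 came largely from the filter. Kcne4 stayed under 0.05 in 15 of 16 settings and Kcne3 in 13 of 17. The number of expressed Kcn genes, 26, was 37 at 0.5 FPKM, 20 at 2 FPKM and 14 at 5 FPKM. The replicate block changed no call. Of 418 values of single members, 414 kept within the spread; Kcna5 was -0.34 as reported and ran from -0.61 to 0.0206 when 1 replicate was left out, turning its sign without wildtype replicate 3. Direction was followed only for the 13 members whose change exceeded its SE. Kcnj2 moved to 0.50 without wildtype replicate 1. With no filter 84 Kcn genes of 17720 genes were tested. Genes of few reads, such as Kcnmb4, are limited by depth.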
